A study of Drosophila melanogaster with 25 samples.

Results

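The genes described here are the core of the Drosophila JAK/STAT pathway: the ligands upd1, upd2 and upd3, the receptor dome, the receptor-like gene et, the kinase hop, the transcription factor Stat92E, and the pathway targets and regulators Socs36E, chinmo and Ptp61F. They were listed by name for their place in the pathway, with no threshold on the measured values, but with earlier results of these data known, so the counts of members that changed are a description of this list. Of these 10 genes, 9 were found by gene identifier among the 13955 genes of the deposited tables. No identifier in the tables is named as Ptp61F by the annotation used here, so it is given no value.

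RNA was sequenced from wing imaginal discs of wandering third-instar larvae, 50 discs per sample, in 19 libraries. RpS3 discs (2 libraries) were heterozygous for the Plac92 allele of a ribosomal protein gene on an FRT82B ubi-GFP chromosome, and RpS3* discs (2 libraries) carried a different heterozygous allele on FRT82B. The mahj discs (2 libraries) were homozygous mutants on FRT42D that also carried hs-FLP and stauGFP, and RpS15 discs (2 libraries) were heterozygous for M(2)53[1] on FRT42D. RpS3+puc discs (3 libraries) carried the RpS3 Plac92 chromosome together with esg-Gal4, UAS-GFP and UAS-Puc, so that the phosphatase puc was expressed where the esg driver is active. The RpS3 libraries have neither the driver nor the UAS-GFP, so in that comparison the driver and puc cannot be told apart. WT discs (8 libraries) were yw (6 libraries) or FRT82 ubi-GFP (2 libraries), and none of them has the FRT42D, hs-FLP or stauGFP elements. The study set these genotypes side by side because RpS3, RpS3* and mahj mutant cells are eliminated as losers by neighbouring WT cells, whereas RpS15 mutant cells are not. The libraries were made from whole discs, in which fewer cells of a type and less RNA per cell cannot be told apart.

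As background, the Unpaired ligands bind the receptor Domeless on the cell surface. The receptor then activates the Janus kinase Hopscotch, which phosphorylates Stat92E, and phosphorylated Stat92E enters the nucleus and switches on target genes. One of these targets, Socs36E, encodes a suppressor of cytokine signalling that dampens the pathway, so its transcript is widely used as a readout. In imaginal discs, upd genes are known to be induced by tissue damage and by stress signalling through JNK.

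Values are FPKM, the number of fragments on a gene divided by its length and by the library's mapped total. Fold changes are differences of log2(FPKM + 1), which understates the change of genes under about 1 FPKM, and they are given with the standard error (SE) of a limma fit across all genes. A gene was tested where at least 2 of the compared libraries reached 1 FPKM, and was called changed at a Benjamini-Hochberg adjusted p under 0.1. With 2 mutant libraries, a gene that is low in WT passes this filter only if it is high in the mutant, so upd2 and upd3 were also read from a fit without the filter. The FPKM imply 12.1 to 17.0 M reads per library (M, mega). In each labelled mutant the targeted gene was lower than in WT. RpS3 averaged 1329 FPKM in RpS3 discs, 1279 FPKM in RpS3* discs and 1300 FPKM in RpS3+puc discs against 2457 FPKM in WT discs. The RpS3 transcript was also lower in RpS15 discs, at 1630 and 1648 FPKM, below every WT library (lowest 2057 FPKM). RpS15 averaged 1032 FPKM in RpS15 discs against 3152 FPKM in WT discs, and mahj averaged 17.2 FPKM in mahj discs against 26.0 FPKM in WT discs. In RpS3+puc discs puc averaged 190.0 FPKM, against 14.0 FPKM in RpS3 discs and 15.2 FPKM in WT discs.

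RpS3* and mahj discs had more transcript of the ligands and targets than WT discs, RpS3 discs had more Socs36E and upd3, and no member was called in RpS15 discs. Over the 9 measured members, in the fit without the filter, 6 rose and none fell in RpS3* discs, 5 rose and none fell in mahj discs, and 2 rose and none fell in RpS3 discs. Over all genes in that fit, which include those below the filter, 8.79% rose in RpS3* discs, 7.2% in mahj discs and 6.89% in RpS3 discs. Among genes that passed the filter, 16.5% rose in RpS3* discs, 9.33% in mahj discs and 14.4% in RpS3 discs. The median of the 9 members differed from WT by 0.62 in RpS3* discs, 0.65 in mahj discs and 0.25 in RpS3 discs on the log2 scale, against a median over all genes in that fit of -0.002 in RpS3* discs, -0.008 in mahj discs and 0.003 in RpS3 discs. In RpS15 discs 0 of 9 members were called by limma, 2 had an unadjusted p under 0.05, and 13.4% of all genes were called. No other tool was run. For the same 9 members, all libraries lay above every WT library for 6 genes in RpS3* discs, 6 in mahj discs, 4 in RpS3 discs, 2 in RpS15 discs and 3 in RpS3+puc discs. Over all genes measured, this was so for 12.8% in RpS3* discs, 9.96% in mahj discs, 12.5% in RpS3 discs, 13.8% in RpS15 discs and 15.6% in RpS3+puc discs. All RpS3+puc libraries lay below every WT library for 1 member and for 10.6% of all genes.

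**Figure D1:**
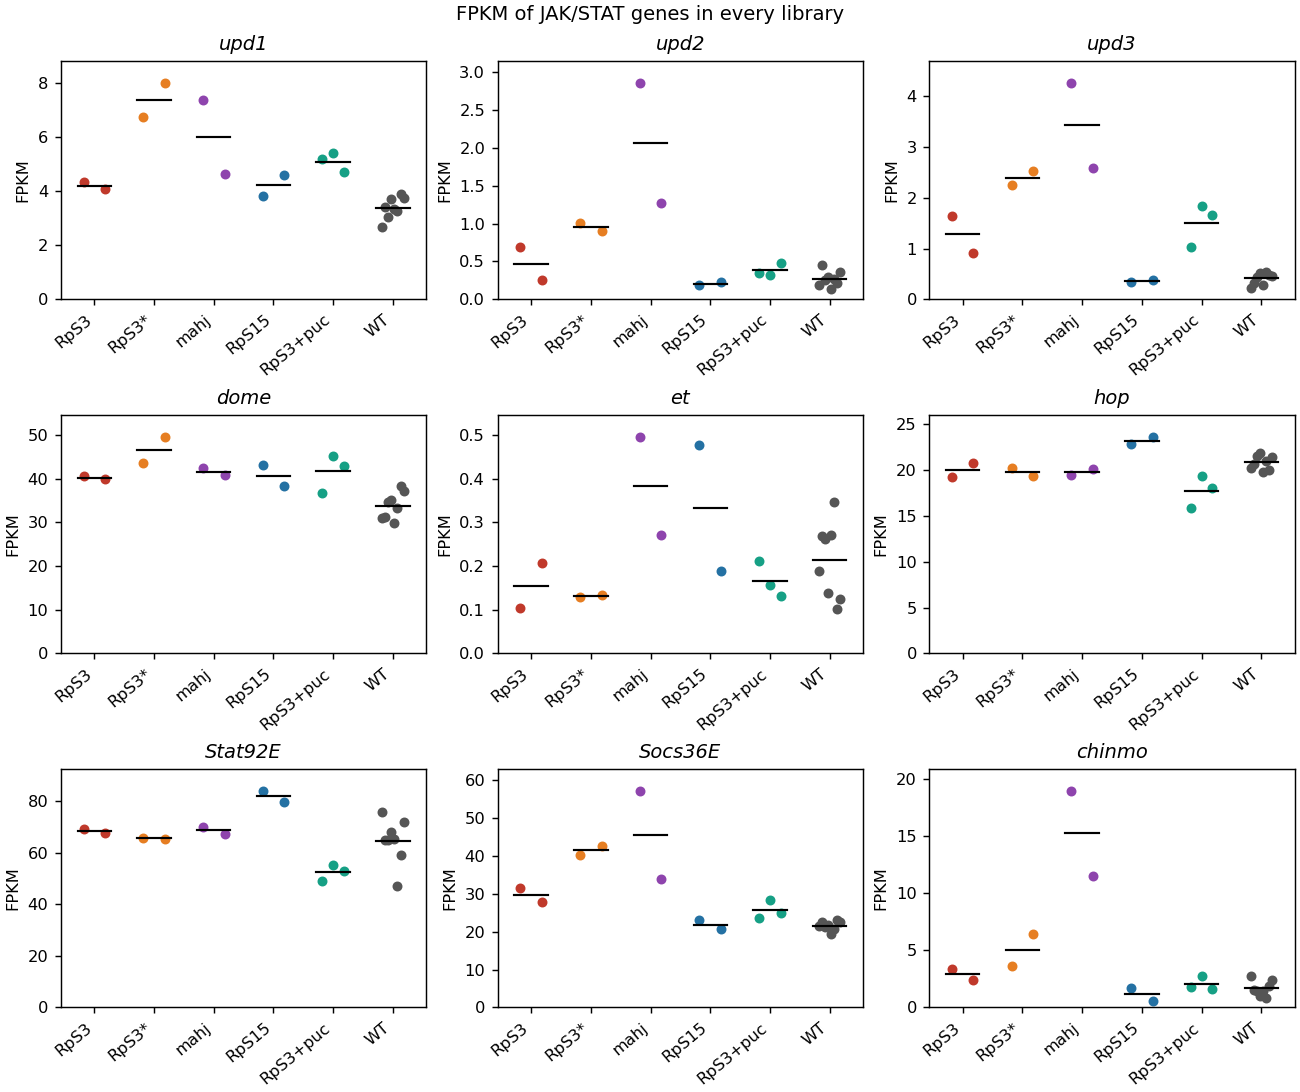
FPKM (vertical axes, each from 0) of 9 JAK/STAT genes in every library of 6 genotypes, with 1 point per library and the group mean as a line. The ligands upd2 and upd3 and the targets Socs36E and chinmo are highest in mahj and RpS3* discs, and hop and Stat92E have their lowest group means in RpS3+puc discs.

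The ligand genes lie in a cluster on chromosome X in the order upd2, upd3, upd1. In the BDGP6.54 annotation, which is a later build than the dm3 build named for the files, 33948 bp separate upd2 from upd3 and 20757 bp separate upd3 from upd1. In WT discs upd1 was the most abundant ligand per length.

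upd1, the founding ligand of the family, had 6.75 and 7.999 FPKM in RpS3* discs, 7.36 and 4.64 FPKM in mahj discs, 4.32 and 4.06 FPKM in RpS3 discs, 3.82 and 4.60 FPKM in RpS15 discs, and 5.17, 5.39 and 4.69 FPKM in RpS3+puc discs. In WT discs it ranged from 2.67 to 3.88 FPKM with a median of 3.39 FPKM. All libraries of RpS3*, mahj, RpS3 and RpS3+puc discs lay above every WT library, and the RpS15 libraries overlapped with WT. It rose by 0.93 ± 0.13 (SE; adjusted p = 0.0004) in RpS3* discs, by 0.65 ± 0.15 (adjusted p = 0.015) in mahj discs and by 0.48 ± 0.10 (adjusted p = 0.0023) in RpS3+puc discs. Without the first mahj library the difference in mahj discs was 0.37 with an adjusted p of 0.51, and against the FRT82 ubi-GFP WT libraries alone it was 0.67 with an adjusted p of 0.13. The log2 difference from WT was 0.25 ± 0.13 in RpS3 discs (adjusted p = 0.21) and 0.25 ± 0.13 in RpS15 discs (adjusted p = 0.22).

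upd3, which encodes an interleukin-6-like cytokine induced by stress and infection, was called higher in the same genotypes as upd1 and, in the fit without the filter, in RpS3 discs as well. It had 2.26 and 2.52 FPKM in RpS3* discs, 4.27 and 2.60 FPKM in mahj discs, 1.65 and 0.92 FPKM in RpS3 discs, 0.34 and 0.37 FPKM in RpS15 discs, and 1.02, 1.84 and 1.66 FPKM in RpS3+puc discs. WT discs had 0.23 to 0.53 FPKM with a median of 0.45 FPKM. Every library of RpS3*, mahj, RpS3 and RpS3+puc discs lay above every WT library, while RpS15 overlapped with WT.

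The mean FPKM of upd3 was 5.83 times that of WT in RpS3* discs, 8.37 times in mahj discs, 3.13 times in RpS3 discs, 3.67 times in RpS3+puc discs and 0.871 times in RpS15 discs. It rose by 1.27 ± 0.15 (adjusted p = 0.00011) in RpS3* discs, by 1.63 ± 0.17 (adjusted p = 4.3e-05) in mahj discs and by 0.82 ± 0.14 (adjusted p = 0.00055) in RpS3+puc discs. In these comparisons it passed the filter only through the mutant libraries. Without the filter upd3 rose by the same amounts, with an adjusted p of 3.3e-05 in RpS3* discs, 3.2e-05 in mahj discs and 0.00043 in RpS3+puc discs. In RpS3 discs it was below the filter, and it rose in the fit without the filter by 0.68 ± 0.14 (adjusted p = 0.015), where 6.89% of all genes rose. That call was lost without the first RpS3 library (0.45, adjusted p = 0.36) and against the FRT82 ubi-GFP WT libraries alone (0.68, adjusted p = 0.16). In RpS15 discs the difference without the filter was -0.05, with a 95% interval of -0.29 to 0.19.

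upd2, a ligand known to be secreted by the fat body in response to nutrition, was the least abundant. It had 1.00 and 0.90 FPKM in RpS3* discs, 2.86 and 1.28 FPKM in mahj discs, 0.69 and 0.25 FPKM in RpS3 discs, 0.19 and 0.23 FPKM in RpS15 discs, and 0.35, 0.32 and 0.47 FPKM in RpS3+puc discs. WT discs had 0.13 to 0.46 FPKM with a median of 0.26 FPKM. The RpS3* and mahj libraries lay above every WT library, and those of RpS3, RpS15 and RpS3+puc overlapped with WT.

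upd2 rose in mahj discs by 1.23 ± 0.19 (adjusted p = 0.0011), where the mean FPKM was 7.64 times that of WT. It passed the filter there only through the mahj libraries, and without the filter it rose by 1.23 ± 0.17 (adjusted p = 0.00062). It was below the filter in the other comparisons with WT. Without the filter it rose in RpS3* discs by 0.62 ± 0.11 (adjusted p = 0.0035), where 8.79% of all genes rose, and the difference was 0.20 ± 0.12 in RpS3 discs (adjusted p = 0.40), -0.07 ± 0.09 in RpS15 discs (adjusted p = 0.71) and 0.12 ± 0.08 in RpS3+puc discs (adjusted p = 0.30).

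The counts behind upd2 and upd3 are small, and the FPKM return them exactly since each gene has 1 annotated transcript. upd2 had 32 and 28 reads in RpS3* discs, 86 and 39 in mahj discs, 22 and 8 in RpS3 discs, 6 and 7 in RpS15 discs, 11, 10 and 15 in RpS3+puc discs, and 4 to 14 in WT discs. upd3 had 81 and 88 reads in RpS3* discs, 144 and 89 in mahj discs, 59 and 33 in RpS3 discs, 12 and 13 in RpS15 discs, 36, 65 and 59 in RpS3+puc discs, and 8 to 20 in WT discs. For upd3 the 2 RpS3 libraries together held 92 reads and the 2 RpS15 libraries 25 reads, against 114 reads over the 8 WT libraries.

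**Figure D2:**
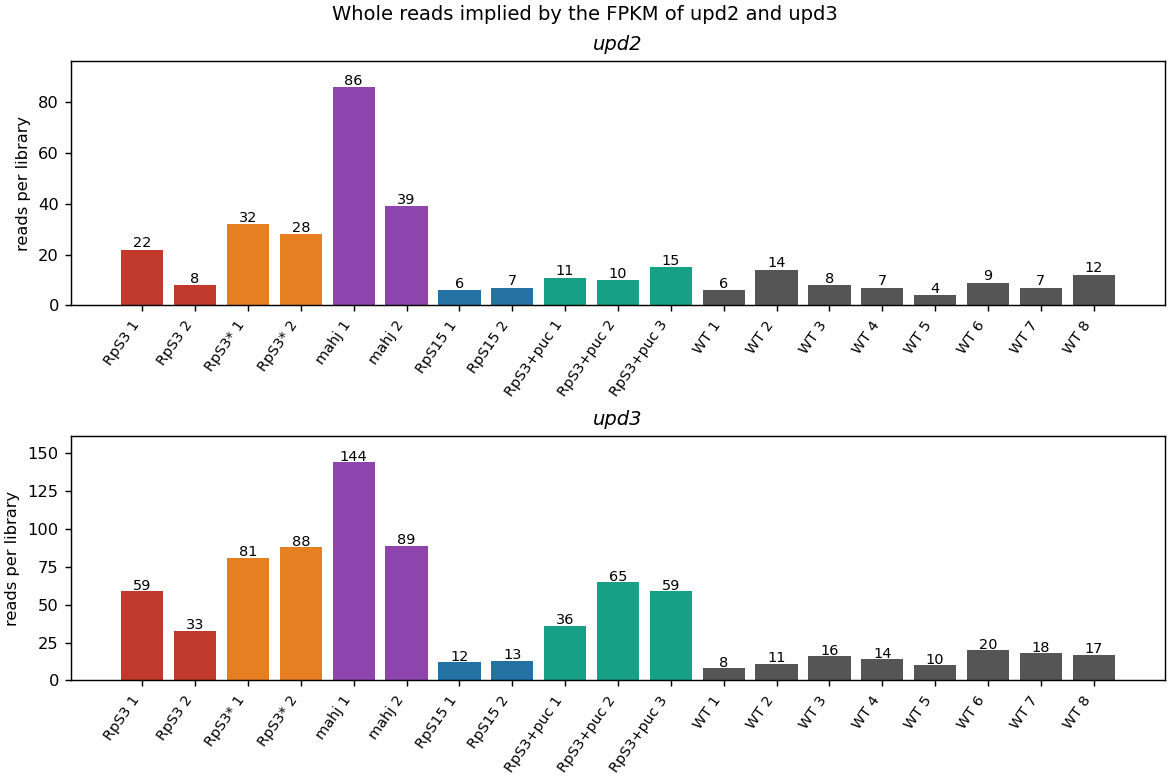
Whole reads implied by the FPKM of upd2 (top) and upd3 (bottom), on vertical axes from 0, with 1 bar per library coloured by genotype. For upd3 the RpS3*, mahj, RpS3 and RpS3+puc libraries hold 33 to 144 reads and the RpS15 libraries hold 12 and 13, against 8 to 20 in the WT libraries.

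The composition of the ligand pool differed as well. upd1 made up 67.4% and 70.0% of the summed ligand FPKM in RpS3* discs, 50.8% and 54.5% in mahj discs, 64.8% and 77.7% in RpS3 discs, 87.8% and 88.4% in RpS15 discs, and 68.7% to 79.0% in RpS3+puc discs. In WT discs its share was 80.4% to 88.8%. The share of upd3 was 22.1% and 22.6% in RpS3* discs, 29.5% and 30.5% in mahj discs, 17.5% and 24.8% in RpS3 discs, 7.21% and 7.81% in RpS15 discs and 15.6% to 24.4% in RpS3+puc discs, against 7.48% to 13.0% in WT discs. These shares carry no test of their own.

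The receptor gene dome was abundant in discs of every genotype. It had 43.6 and 49.6 FPKM in RpS3* discs, 42.4 and 40.8 FPKM in mahj discs, 40.5 and 39.9 FPKM in RpS3 discs, 43.1 and 38.2 FPKM in RpS15 discs, and 36.7, 45.2 and 43.0 FPKM in RpS3+puc discs. WT discs had 29.9 to 38.3 FPKM with a median of 34.0 FPKM. dome rose by 0.45 ± 0.10 in RpS3* discs (adjusted p = 0.012), by 0.30 ± 0.10 in mahj discs (adjusted p = 0.077) and by 0.29 ± 0.09 in RpS3+puc discs (adjusted p = 0.016). The difference was of similar size in RpS3 discs (0.25 ± 0.10, adjusted p = 0.12) and in RpS15 discs (0.26 ± 0.10, adjusted p = 0.11). The mahj call was lost without the filter (adjusted p = 0.11), against the yw WT libraries alone (0.12), without either mahj library (0.55 and 0.26 for the first and the second) and without WT replicates 1, 2, 3 or 5 (0.10 to 0.12). Without the second RpS3* library the difference in RpS3* discs was 0.36 with an adjusted p of 0.25. The RpS3 difference was called without WT replicate 7 (adjusted p = 0.051) or 8 (0.098), and the RpS15 difference likewise (0.068 and 0.098).

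et, which encodes a receptor-like protein known to antagonise the pathway, lies 169 bp from dome on the same strand. It was close to the detection limit, with 5 and 5 reads in RpS3* discs, 18 and 10 in mahj discs, 4 and 8 in RpS3 discs, 18 and 7 in RpS15 discs, 8, 6 and 5 in RpS3+puc discs and 4 to 14 in WT discs. It was below the filter in every comparison and was not called in any of them without the filter. Its exons overlap those of Zw on the opposite strand, and whether the counting used strand is not given in the sources used here, so reads of these genes may not be separable.

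The signal transducers showed another pattern. hop, the Janus kinase, had 20.3 and 19.4 FPKM in RpS3* discs, 19.5 and 20.1 FPKM in mahj discs, 19.2 and 20.7 FPKM in RpS3 discs, 22.8 and 23.6 FPKM in RpS15 discs, and 15.8, 19.4 and 18.1 FPKM in RpS3+puc discs. WT discs had 19.8 to 21.9 FPKM with a median of 20.8 FPKM. All RpS15 libraries lay above every WT library and all RpS3+puc libraries lay below every one. hop fell by 0.22 ± 0.07 on the log2 scale in RpS3+puc discs (adjusted p = 0.017), but was not called without the first library of that genotype (-0.15, adjusted p = 0.13) or against the FRT82 ubi-GFP WT libraries alone (-0.19, adjusted p = 0.22). It was not called in the other genotypes, with differences of -0.07 in RpS3* discs, -0.07 in mahj discs, -0.06 in RpS3 discs and 0.15 in RpS15 discs.

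Stat92E, the only STAT of the fly, had 65.7 and 65.4 FPKM in RpS3* discs, 70.1 and 67.4 FPKM in mahj discs, 69.0 and 67.6 FPKM in RpS3 discs, 84.0 and 79.6 FPKM in RpS15 discs, and 49.1, 55.3 and 52.9 FPKM in RpS3+puc discs. WT discs spread from 47.1 to 75.8 FPKM with a median of 65.0 FPKM. It fell by 0.28 ± 0.12 in RpS3+puc discs (adjusted p = 0.051), whose libraries overlapped with WT. Against the FRT82 ubi-GFP WT libraries alone, the difference was -0.08 with an adjusted p of 0.67, against the WT libraries of as many runs the adjusted p was 0.10, and without RpS3+puc replicate 1 or 3 the adjusted p was 0.19 and 0.11. The RpS15 libraries lay above every WT library, with a difference of 0.35 ± 0.14 (adjusted p = 0.12), which was called without WT replicate 1 (0.074) or 6 (0.067). In RpS3*, mahj and RpS3 discs the differences were 0.03, 0.10 and 0.09, and none was called.

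**Figure D3:**
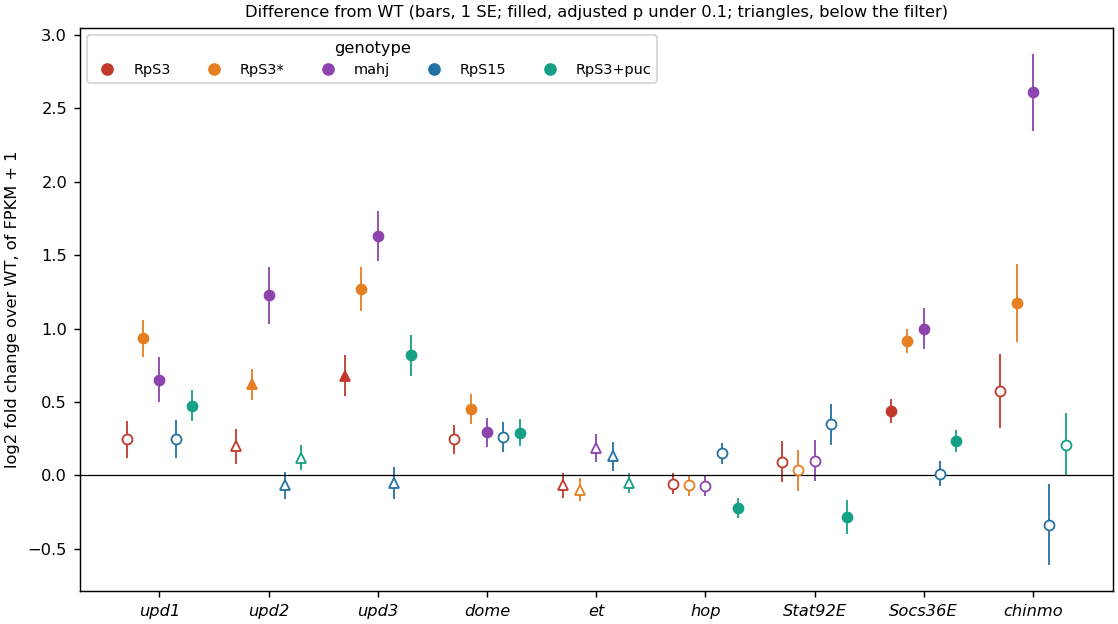
Difference from WT in log2(FPKM + 1) for 9 genes (horizontal axis) in 5 genotypes, with bars of 1 SE. Filled symbols have an adjusted p under 0.1, and triangles are genes below the filter, read from the fit without it. The differences of mahj discs reach 1.63 for upd3 and 2.61 for chinmo, and those of RpS15 discs are all open symbols.

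Socs36E had 40.3 and 42.8 FPKM in RpS3* discs, 57.2 and 34.0 FPKM in mahj discs, 31.5 and 27.8 FPKM in RpS3 discs, 23.0 and 20.6 FPKM in RpS15 discs, and 23.6, 28.3 and 24.9 FPKM in RpS3+puc discs. WT discs had 19.3 to 23.2 FPKM with a median of 21.6 FPKM. Every library of RpS3*, mahj, RpS3 and RpS3+puc discs lay above every WT library. Socs36E rose by 0.91 ± 0.08 in RpS3* discs (adjusted p = 7.4e-06), by 1.00 ± 0.14 in mahj discs (adjusted p = 0.00047), by 0.44 ± 0.08 in RpS3 discs (adjusted p = 0.006) and by 0.23 ± 0.07 in RpS3+puc discs (adjusted p = 0.017). In RpS15 discs the difference was 0.01, with a 95% interval of -0.17 to 0.19. Without the first RpS3 library the difference in RpS3 discs was 0.35 with an adjusted p of 0.23. Without the second RpS3+puc library the difference in RpS3+puc discs was 0.16 with an adjusted p of 0.12.

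chinmo, a BTB zinc-finger gene that Stat92E is known to activate in the testis and the eye disc, showed the largest differences of any member in mahj discs. It had 18.98 and 11.5 FPKM in mahj discs, 3.64 and 6.39 FPKM in RpS3* discs, 3.36 and 2.43 FPKM in RpS3 discs, 1.71 and 0.56 FPKM in RpS15 discs, and 1.75, 2.75 and 1.63 FPKM in RpS3+puc discs. WT discs had 0.79 to 2.78 FPKM with a median of 1.51 FPKM. The mahj and RpS3* libraries lay above every WT library, and the other genotypes overlapped with WT.

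chinmo rose by 2.61 ± 0.26 in mahj discs (adjusted p = 3.2e-05), where its mean FPKM was 9.14 times that of WT, and by 1.17 ± 0.26 in RpS3* discs (adjusted p = 0.011). The difference was 0.58 ± 0.25 in RpS3 discs (adjusted p = 0.15), -0.34 ± 0.28 in RpS15 discs (adjusted p = 0.43) and 0.21 ± 0.21 in RpS3+puc discs (adjusted p = 0.41). Without the second RpS3* library the difference in RpS3* discs was 0.84 with an adjusted p of 0.28, and without WT replicate 1 the RpS3 difference was called (adjusted p = 0.088).

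The first mahj library lay above the second for each ligand and target, by 1.59 times for upd1, 2.24 times for upd2, 1.64 times for upd3, 1.68 times for Socs36E and 1.64 times for chinmo. For dome, hop and Stat92E the ratio of the first to the second was 1.04, 0.971 and 1.04. Without the first mahj library 2 members were called against WT, Socs36E and chinmo, and without the second 3 were called, upd1, Socs36E and chinmo. In these fits upd2 and upd3 dropped below the filter, and the remaining mahj library was assumed to vary like the WT libraries. Without the filter, and with the first mahj library left out, the difference from WT was 0.85 for upd2 (adjusted p = 0.0075) and 1.35 for upd3 (adjusted p = 0.0007). In RpS3* discs, 2 members were called without the second library, upd1 and Socs36E, and upd3 again dropped below the filter. Without the filter upd3 then differed by 1.21 (adjusted p = 0.0016).

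The genotypes were also compared with each other in 1 fit of the 16 libraries other than RpS3+puc. Of 8 tested members, 5 were higher in RpS3* than in RpS15 discs and 1 was lower, where 27.9% of all genes were called higher and 21.3% lower. In mahj against RpS15 discs 4 were higher and 1 lower, with 12.6% of all genes called higher and 14.2% lower. In RpS3 against RpS15 discs 3 were higher and 1 lower, with 27.9% of all genes called higher and 18.1% lower. Over all 9 measured members without the filter these counts were the same.

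upd3, Socs36E and chinmo were called higher than in RpS15 discs in each of the 3 loser genotypes. For upd3 the log2 difference was 1.32 ± 0.20 in RpS3* discs (adjusted p = 0.00027), 1.68 ± 0.20 in mahj discs (adjusted p = 3.4e-05) and 0.73 ± 0.20 in RpS3 discs (adjusted p = 0.013). For Socs36E it was 0.90 ± 0.16 in RpS3* discs (adjusted p = 0.0011), 0.99 ± 0.16 in mahj discs (adjusted p = 0.00068) and 0.43 ± 0.16 in RpS3 discs (adjusted p = 0.052). hop was the 1 lower member in each, with a difference of -0.22 in RpS3*, -0.22 in mahj and -0.21 in RpS3 discs. Without the first RpS3 library no member was called between RpS3 and RpS15 discs, and without the second RpS15 library only upd3 was. The hop calls were lost with either RpS3* replicate 2 or RpS15 replicate 2 left out in RpS3* discs, with any mahj or RpS15 library left out in mahj discs, and with RpS3 replicate 1 or either RpS15 library left out in RpS3 discs.

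Between the RpS3 alleles no member was called by limma (0 of 8), with 0.598% of all genes called. 3 members had an unadjusted p under 0.05, and no other tool was run. The difference of RpS3* from RpS3 discs was 0.69 for upd1, with a 95% interval of 0.31 to 1.07 (adjusted p = 0.16), and 0.59 for upd3, with an interval of 0.16 to 1.02 (adjusted p = 0.41). In mahj against RpS3 discs 4 members were higher, upd2, upd3, Socs36E and chinmo, with 4.33% of all genes called higher. In mahj against RpS3* discs 2 were higher, upd2 and chinmo, with 6.05% of all genes called higher. Without the first mahj library, chinmo was the 1 member called against RpS3 discs and none was called against RpS3* discs, and likewise chinmo alone was called against RpS3 discs without the second RpS3 library. Without the first RpS3* library none was called between mahj and RpS3* discs, and without the second 1 was.

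In RpS3 discs expressing puc, an inhibitor of JNK, no ligand differed from RpS3 discs past the threshold. Against RpS3 discs 1 of 9 members was called in the fit without the filter, Stat92E, where 16.5% of all genes fell. With the filter Stat92E fell by 0.38 ± 0.08 (adjusted p = 0.0074). In this comparison, with the filter, 5 of 5 fat body markers, 2 of 3 wing disc epithelium markers and 1 of 2 tested haemocyte markers also fell. Among all genes that passed the filter 1977 of 7883 fell. Without the filter 5 of 5 fat body, 1 of 3 wing disc epithelium and 4 of 6 haemocyte markers fell. The median over the fat body markers was -3.29, and the part of these markers in the member values was not tested. For upd3 the difference was 0.14 with a 95% interval of -0.33 to 0.60 (adjusted p = 0.62), and for upd1 it was 0.23 with an interval of -0.04 to 0.49 (adjusted p = 0.15). Socs36E differed by -0.21, with an interval of -0.43 to 0.02 (adjusted p = 0.13), and chinmo by -0.37, with an interval of -0.80 to 0.07 (adjusted p = 0.16). Without the second RpS3+puc library 3 members were called lower, Stat92E, Socs36E and chinmo.

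Against WT, RpS3+puc discs had 4 members higher and 2 lower of 9 in the fit without the filter, where 23.2% of all genes rose and 16.4% fell. The summed FPKM of 3 wing disc epithelium markers was 177 to 246 in RpS3+puc discs against 256 to 333 in WT discs, with 3 of 3 genes called lower. That of 5 fat body markers was 3.51 to 7.32 in RpS3+puc discs against 29.0 to 302 in WT discs, with 5 of 5 called lower. The part of these differences in the member values was not tested.

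Haemocytes, the blood cells of the fly, and the fat body are known to express upd3 and upd2. The summed FPKM of 6 haemocyte markers was 1.40 to 1.71 in RpS3* discs, 8.10 to 16.2 in mahj discs, 3.39 to 8.71 in RpS3 discs, 5.29 to 6.44 in RpS15 discs and 0.646 to 3.52 in RpS3+puc discs, against 1.27 to 11.5 in WT discs. Of the haemocyte markers tested against WT, 1 of 3 fell in RpS3* discs, 1 of 6 rose in mahj discs and 3 of 3 fell in RpS3+puc discs. In RpS3 discs 0 of 3 and in RpS15 discs 0 of 4 were called, with 0 at an unadjusted p under 0.05 in each. Without the filter, 0 of 6 were called in RpS3* and RpS3 discs, 1 rose in mahj, 1 rose in RpS15 and 2 fell in RpS3+puc discs. Among all genes that passed the filter, 6.33% fell in RpS3*, 9.33% rose in mahj and 24.9% fell in RpS3+puc discs. NimC1 was listed at 0 in WT replicate 7. The sum of the fat body markers was 15.004 to 20.1 in RpS3* discs, 55.3 to 1150 in mahj discs, 97.7 to 128 in RpS3 discs and 88.4 to 601 in RpS15 discs. Of these 5 markers, 2 fell in RpS3* discs and none was called by limma in mahj discs, where 1 had an unadjusted p under 0.05. In RpS3* discs the haemocyte sums were within the WT range, near its low end, and the fat body sums were below it. In mahj discs the library with the higher upd3 also had the higher sums. In RpS3 and in RpS3* discs the library with the higher upd3 had the lower sums. In RpS15 discs it had the lower haemocyte sum and the higher fat body sum. The part of these cells in the member values was not tested in any genotype.

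Markers of other cells of the disc moved as well. Of 5 muscle markers, 3 fell in mahj discs (twi, Him and Mef2), 1 in RpS3* discs (Him), 1 in RpS3 discs (Mef2), 2 in RpS15 discs (Him and Act57B) and 2 in RpS3+puc discs (Mef2 and Act57B), and none rose. Over all genes tested, 546 of 8145 fell in mahj discs, 511 of 8067 in RpS3* discs and 336 of 8053 in RpS3 discs. In RpS15 discs 731 of 8134 fell, and in RpS3+puc discs 2013 of 8094. The summed FPKM of the muscle markers was 69.0 to 82.4 in RpS3* discs, 60.2 to 80.4 in mahj discs, 85.5 to 85.6 in RpS3 discs, 68.8 to 69.5 in RpS15 discs and 70.7 to 88.3 in RpS3+puc discs, against 79.7 to 116 in WT discs. In RpS15 discs the tracheal gene trh rose by 0.50 (adjusted p = 0.0023), and msl-2, of the male dosage compensation complex, rose by 0.75 (adjusted p = 0.10 when rounded). For msl-2 the RpS15 libraries had 23.2 and 24.4 FPKM and overlapped with WT, which had 10.2 to 26.5 FPKM. WT replicates 1 and 2 had 26.5 and 18.4 FPKM, above the other WT libraries. In RpS15 discs all 3 wing disc epithelium markers lay above every WT library and 1, nub, rose by 0.23 (adjusted p = 0.087). Of all genes measured, 13.8% lay above every WT library in RpS15 discs, and 12.1% of the genes that passed the filter rose. The part of these marker differences in the member values was not tested.

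**Figure D4:**
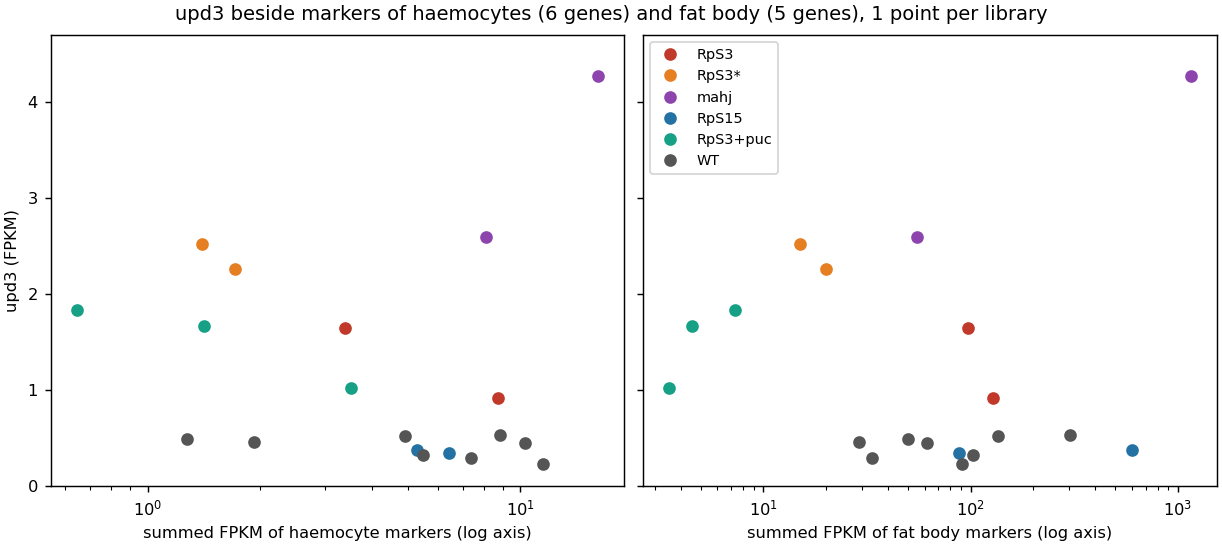
upd3 (FPKM, vertical axis) against the summed FPKM of 6 haemocyte markers (left) and 5 fat body markers (right), both on log axes, with 1 point per library coloured by genotype. The RpS3* libraries have 2.26 and 2.52 FPKM of upd3 at haemocyte sums of 1.71 and 1.40, and the first mahj library is highest on all 3 measures.

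Of 8 regulators tested, 2 rose and none fell in RpS3* discs, 1 rose in mahj discs, 2 rose in RpS3 discs, 1 rose in RpS15 discs, and 2 rose and 1 fell in RpS3+puc discs. Of 14 tested genes (of 17 measured) reported to respond to Stat92E in some fly tissue, 2 rose and 2 fell in RpS3* discs, 2 rose in mahj discs, 2 rose and 1 fell in RpS3 discs, 3 rose in RpS15 discs, and 4 rose and 3 fell in RpS3+puc discs. Among all genes that passed the filter, 16.5% rose and 6.33% fell in RpS3* discs, 9.33% rose in mahj discs, 14.4% rose and 4.17% fell in RpS3 discs, 12.1% rose in RpS15 discs, and 37.4% rose and 24.9% fell in RpS3+puc discs. Counts this small do not set either list apart from all genes. The median of the responsive genes lay between 0.00 and 0.15 in the 5 comparisons with WT. That of the regulators was 0.16 in RpS3*, 0.34 in mahj, 0.23 in RpS3, 0.04 in RpS15 and 0.03 in RpS3+puc discs.

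Among these, ken, a repressor of a subset of Stat92E targets, rose in RpS3*, RpS3 and RpS3+puc discs by 0.77, 0.65 and 0.53. WT replicates 7 and 8 had 19.6 and 20.97 FPKM of ken, above the other WT libraries. RpS3* discs had 22.2 and 27.9 FPKM and RpS3 discs 23.2 and 22.3 FPKM, above every WT library. RpS3+puc discs had 21.2, 25.7 and 16.5 FPKM, overlapping with WT. asrij, an endosomal protein of blood cell precursors, rose in RpS3*, RpS3 and RpS3+puc discs by 0.73, 0.69 and 0.86. lama rose by 0.91 in RpS3*, 0.76 in mahj, 0.62 in RpS3 and 0.62 in RpS3+puc discs. Tep2, a thioester-containing protein, rose by 0.33 in mahj, 0.38 in RpS3, 0.74 in RpS15 and 0.23 in RpS3+puc discs. zfh1, a zinc-finger homeodomain factor that Stat92E activates in the testis, fell by 0.57 in RpS3*, 0.64 in RpS3 and 0.52 in RpS3+puc discs. TotA, a humoral stress peptide made by the fat body, fell by 1.78 in RpS3* and 1.82 in RpS3+puc discs.

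The genes whose pattern was most like that of the members were sought over the 19 libraries among 7856 genes, by Pearson's r of log2(FPKM + 1). These values describe the libraries, whose genotype means they share, and carry no test. For upd3 the nearest were CG2909 (r = 0.96), Men, the malic enzyme (r = 0.96), Pura (r = 0.95) and Exn (r = 0.95). For Socs36E they were Ilp8, a relaxin-like peptide that growth-disturbed discs secrete (r = 0.98), AcCoAS, acetyl-CoA synthase (r = 0.96), CG10559 (r = 0.95) and CG5535 (r = 0.94). Ilp8 averaged 25.3 FPKM in RpS3* discs, 97.0 FPKM in mahj discs, 2.93 FPKM in RpS3 discs, 0.327 FPKM in RpS15 discs and 1.57 FPKM in RpS3+puc discs, against 0.207 FPKM in WT discs. Among the members themselves, r with Socs36E was 0.93 for upd3, 0.91 for upd2, 0.88 for chinmo, 0.85 for upd1, 0.69 for dome, 0.13 for et, 0.08 for Stat92E and -0.27 for hop.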

How the data were processed

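RNA from 50 wing discs per sample was sequenced in 25 runs that make up 19 libraries, 6 of which pool 2 runs. According to the submitters' processing notes reads were aligned with BWA 0.6.2 to dm3, and the tool that counted and normalised them is not given in the sources used here. The deposited values are FPKM per gene, as the authors made them. They were used unchanged, since low values correspond to whole reads for 98.0% to 98.8% of genes with 1 transcript (tolerance 0.1 read), which gives the implied depth. This precision covers counting error only. Whether libraries of a group came from separate crosses is not stated, so p-values measure the spread between these libraries.

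Members and gene lists were chosen with earlier results of these data known. Values were tested as log2(FPKM + 1) with limma 3.58.1 (R 4.3.3; trend and robust), each mutant with WT, RpS3+puc also with RpS3, and the genotypes with each other in a joint fit. Genes needed 1 FPKM in at least 2 compared libraries, and p-values were adjusted over all genes tested. All members were described. From the lists of regulators (8 of 8 matched) and responsive genes (17 of 18 matched), genes past the threshold in 2 or more comparisons with WT were named, and the 4 nearest patterns were taken for upd3 and Socs36E. The tests were checked on simulated data. Alternatives were a pseudocount of 0.1, no filter, a threshold of 0.05, all libraries in 1 fit, median-of-ratios scaling, other choices of WT libraries, a replicate block and leaving out each library. Gene positions are from BDGP6.54, and no sequence was used here.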

Additional observations from a re-analysis of the deposited data

Results flagged for a closer look

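Members were called different between genotypes in 21 tests by limma in the joint fit, each given as a log2 difference. Each comparison tested 8 members, and the shares of all genes called are given with the comparisons above. Several of these calls were lost when a library was left out. In mahj against RpS3 discs the differences were 1.03 for upd2, 0.95 for upd3, 0.56 for Socs36E and 2.03 for chinmo. In mahj against RpS3* discs they were 0.60 for upd2 and 1.44 for chinmo. In RpS3 against RpS15 discs they were 0.73 for upd3, -0.21 for hop, 0.43 for Socs36E and 0.91 for chinmo. In RpS3* against RpS15 discs they were 0.68 for upd1, 0.69 for upd2, 1.32 for upd3, -0.22 for hop, 0.90 for Socs36E and 1.51 for chinmo. In mahj against RpS15 discs they were 1.29 for upd2, 1.68 for upd3, -0.22 for hop, 0.99 for Socs36E and 2.94 for chinmo.

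No member had a WT library that stood apart from the other WT libraries. Among the 6 other named pathway genes, TotA had 8.16 FPKM in WT replicate 3. Its gap to the next WT library was 0.545 of the WT range, against a cut of 0.526. Chance passes this cut in about 1 in 20 groups. The check was made at both ends for each of the 9 members and 6 other genes, and the cut was not adjusted for that number.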

How the results depend on the processing

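Of 42 member differences that were called, none changed direction in any alternative that gave a value. Of those values 555 of 618 stayed called, and 19 of the 42 differences kept the call in each. An alternative in which a member dropped below the filter gave no value and was not counted. This was so for upd2 and upd3 in mahj discs and upd3 in RpS3* discs against WT when a mutant library was left out. Without the filter upd2 then differed by 0.85 or 1.61, and upd3 by 1.35 or 1.91 in mahj and 1.32 or 1.21 in RpS3* discs. With the filter, 1 of 6 tested members was called against WT in RpS3 discs, 5 of 7 in RpS3*, 6 of 8 in mahj and 0 of 6 in RpS15 discs. The numbers tested differ because upd2 and upd3 passed the filter only where the mutant libraries were high. Among all genes that passed it, 14.4% rose in RpS3, 16.5% in RpS3*, 9.33% in mahj and 12.1% in RpS15 discs. Leaving out 1 library at a time, the number of members called against WT ranged from 0 to 2 in RpS3 discs, from 2 to 5 in RpS3* discs, from 2 to 6 in mahj discs and from 0 to 1 in RpS15 discs, and in RpS3+puc against RpS3 discs from 1 to 3. It ranged from 1 to 5 in mahj against RpS3, from 0 to 3 in mahj against RpS3* and from 0 to 4 in RpS3 against RpS15 discs. Of members below the filter, 0 to 1 were called in RpS3 against WT and in RpS3* against RpS15 discs.

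In RpS3 against WT, 2 members were called without the filter, 2 without the filter at a pseudocount of 0.1 (chosen after seeing the data), 3 with all 19 libraries in 1 fit and 3 with the FRT82 ubi-GFP WT libraries only, where 0 members below the filter were called. In RpS15 against WT, 2 were called with all 19 libraries in 1 fit, and 1 each with the yw, the FRT82 ubi-GFP or the WT libraries of as many runs. With all 19 libraries in 1 fit, 1 was called between RpS3* and RpS3 discs. In mahj against RpS3*, 1 was called at a pseudocount of 0.1, with or without the filter, and 1 at a threshold of 0.05, which also left 1 in RpS3 against RpS15. The cause was not tested.

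The labels number replicates in each group, but same-numbered libraries did not deviate together (r from -0.248 to 0.288). With the replicate block 3 members were called in RpS3 against WT and 3 in RpS15 against WT, and 0 of those below the filter were called in RpS3 and 0 in RpS3* discs. The Socs36E difference of mahj discs from WT was 0.97 under the block, with an adjusted p of 0.15. Under the block Stat92E differed from WT by -0.036 in RpS3, -0.094 in RpS3* and -0.027 in mahj discs, and in RpS15 discs Socs36E differed by -0.015 and upd3 by 0.091.

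All 44 alternative values that changed sign belong to differences that were not called. Median-of-ratios scaling gave Stat92E -0.040 in RpS3* and Socs36E -0.022 in RpS15 discs against WT, and hop 0.0061 in RpS3* against RpS3, 0.076 in mahj against RpS3 and 0.070 in mahj against RpS3*. The yw WT libraries gave Stat92E -0.034 in RpS3* and Socs36E -0.020 in RpS15 discs, the FRT82 ubi-GFP libraries gave upd2 0.013 in RpS15 discs, and the WT libraries of as many runs gave Stat92E -0.027 in mahj discs and Socs36E -0.015 and upd3 0.091 in RpS15 discs. With 1 library left out, the differences from WT ranged for Stat92E in RpS3* from -0.028 to 0.069, for upd2 in RpS3 from -0.021 to 0.42, and in RpS15 for Socs36E from -0.062 to 0.088, for chinmo from -0.73 to 0.061 and for et from -0.027 to 0.29. In RpS3+puc against RpS3 they ranged for upd3 from -0.095 to 0.37, for dome from -0.016 to 0.13, for upd2 from -0.29 to 0.14 and for et from -0.0495 to 0.0795. In RpS3* against RpS3 they ranged for hop from -0.062 to 0.042 and for et from -0.094 to 0.035. Between mahj and RpS3 discs they ranged for hop from -0.064 to 0.040 and for Stat92E from -0.019 to 0.037. Between mahj and RpS3* discs they ranged for hop from -0.032 to 0.029, for Socs36E from -0.28 to 0.45 and for upd1 from -0.57 to 0.0026. In RpS3 against RpS15 they ranged for upd1 from -0.11 to 0.10 and for dome from -0.10 to 0.071. In mahj against RpS15 they ranged for dome from -0.052 to 0.12 and for et from -0.099 to 0.22.

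Scaling moved the share of higher among called genes to 56.4%, from 77.6% as deposited, in RpS3 against WT, to 57.4% from 72.2% in RpS3*, and to 42.2% from 57.4% in RpS15. It moved it to 47.3% from 28.5% in mahj against RpS3, to 46.9% from 30.6% in mahj against RpS3*, and to 57.6% from 47% in mahj against RpS15. Depth limits upd2 and et most, with as few as 4 reads in a library.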
